A study of Mus musculus with 6 samples.

Results

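The 8 genes described here govern bone formation and mineral deposition: the osteoblast transcription factors Runx2 and Sp7, the bone matrix phosphoproteins Spp1 and Ibsp, and the mineralization enzymes and inhibitors Alpl, Enpp1, Phex and Mgp. They were taken by gene symbol from a table of 24411 genes, and all 8 were present in it. RNA from Achilles tendons of 18-week-old C57BL/6 mice was measured in 3 libraries from Scx-Cre/Piezo1 GOF mice and 3 libraries from WT mice, with RamDA-seq chemistry and total RNA as input. Piezo1 is a mechanically gated cation channel, GOF stands for gain of function, and the Cre recombinase is driven by sequence of Scx, a transcription factor gene of tendon and ligament cells and their progenitors. Scx-Cre therefore acts from development onward and is not limited to mature tenocytes. The labels give the control genotype only as WT and do not say whether it carried Cre, whether the mice were of one sex, whether an animal gave more than 1 sample or whether tendons were pooled. The spread behind the p-values is that between these samples, and it may not be that between animals.

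Mineral forms in bone when collagen fibrils meet enough free phosphate and calcium, and soft tissues such as tendon stay free of it through active inhibition. Enpp1 makes pyrophosphate, which blocks crystal growth, and Alpl (tissue-nonspecific alkaline phosphatase) breaks pyrophosphate down to phosphate. Mgp (matrix Gla protein) is a vitamin K-dependent inhibitor of calcification of cartilage and arteries, and Runx2 acts upstream of Sp7 in the osteoblast programme that turns on Ibsp, Spp1 and Alpl.

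The stretches before the RefSeq transcription starts of Spp1, Ibsp, Alpl and Enpp1 are shown because the first pair holds the greatest differences between genotypes and the second pair encodes opposing enzymes of pyrophosphate. Each is the 250 bases before the first start listed, 5′ to 3′ on the gene's strand, in the GRCm38.p6 assembly. Capitals mark matches on either strand to ACCACA, the core bound by Runx factors, to CCAAT or to the GC box GGGCGG.
Spp1 (chr5:104434861-104435110, plus strand): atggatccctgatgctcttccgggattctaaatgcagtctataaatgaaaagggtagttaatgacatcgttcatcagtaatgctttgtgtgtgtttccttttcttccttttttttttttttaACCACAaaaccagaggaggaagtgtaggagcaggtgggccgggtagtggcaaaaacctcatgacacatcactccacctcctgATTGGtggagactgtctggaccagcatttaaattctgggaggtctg
Ibsp (chr5:104299037-104299286, plus strand): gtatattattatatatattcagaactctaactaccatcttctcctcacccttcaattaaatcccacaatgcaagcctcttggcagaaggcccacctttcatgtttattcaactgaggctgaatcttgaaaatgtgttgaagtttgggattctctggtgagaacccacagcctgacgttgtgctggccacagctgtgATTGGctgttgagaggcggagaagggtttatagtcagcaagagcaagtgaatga
Alpl (chr4:137796385-137796634, minus strand): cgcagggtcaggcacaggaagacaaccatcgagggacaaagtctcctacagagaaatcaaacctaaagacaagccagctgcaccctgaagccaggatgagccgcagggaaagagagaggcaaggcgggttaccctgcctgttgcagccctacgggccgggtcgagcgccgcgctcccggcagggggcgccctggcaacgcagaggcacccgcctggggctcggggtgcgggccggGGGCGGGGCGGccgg
Enpp1 (chr10:24712160-24712409, minus strand): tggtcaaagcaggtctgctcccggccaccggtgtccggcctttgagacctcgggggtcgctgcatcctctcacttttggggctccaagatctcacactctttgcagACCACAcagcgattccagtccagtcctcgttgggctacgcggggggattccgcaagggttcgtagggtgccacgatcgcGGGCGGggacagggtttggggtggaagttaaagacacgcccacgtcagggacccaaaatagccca

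The Spp1 window held ACCACA beginning 128 bases before the start and a reverse CCAAT beginning 46 bases before it. The Ibsp window held a reverse CCAAT beginning 54 bases before the start and no ACCACA. Alpl had 2 overlapping GC boxes beginning 15 and 10 bases before the start, and Enpp1 had ACCACA at 144 bases and a GC box at 65 bases before the start. Spp1 and Alpl each had a second RefSeq start listed, and the windows before those starts held none of the 3 motifs. The Runx2 window held ACCACA at 80 bases before its own start, and the Phex window held none of the 3 motifs. For Ibsp, Runx2 and Phex the RefSeq start lies inside the gene span given below. Parts of those windows, with the Ibsp and Runx2 matches, therefore fall within the gene models. Among 32851 RefSeq promoter windows of 250 bases, 14.0% held ACCACA, 33.8% CCAAT and 32.7% GGGCGG on either strand. A match to so short a motif is a description of the sequence only.

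Library depth lay between 8131527 and 17180856 counts, and 1 count was worth 0.0639 to 0.130 CPM (counts corrected for library size and TMM factor). Piezo1 transcript overlapped between the genotypes, and a gain-of-function allele need not alter its amount, so it does not check the labels. All 9 tenocyte markers examined were measured, with a summed level of 28455 to 49928 CPM in Piezo1 GOF libraries and 4985 to 14651 CPM in WT libraries, so the tissue carries tendon transcripts. All 9 lay wholly above WT, against 13.6% of all genes tested, with a median log2 fold change of 1.90. DESeq2 called 5 of them higher, against 3.73%. Scx, which is not among the 9, stood at 61.1 ± 16.4 CPM in Piezo1 GOF and 15.8 ± 1.48 CPM in WT (SD, n = 3 each). The tenocyte markers were therefore on the same side as most of the 8 genes, and their part in the results was not tested. Skeletal muscle markers were also abundant, and their share of all counts was 2.73% to 7.38% in Piezo1 GOF and 8.62% to 16.1% in WT, without overlap. Of the 20 markers, 4 lay wholly below WT, against 12.1% of all genes tested. In such bulk RNA, fewer cells of a type and less RNA per cell cannot be told apart.

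Across the 8 genes, 6 were higher in every Piezo1 GOF library than in every WT library, Mgp was lower in every Piezo1 GOF library, and Phex overlapped. The 6 were Ibsp, Spp1, Sp7, Alpl, Enpp1 and Runx2, with fitted folds between 11.5 for Ibsp and 1.78 for Runx2, and Mgp was 2.46-fold lower. Over the 13466 genes tested, 13.6% lay wholly above WT in this way and 12.1% wholly below. None of the 8 passed 0.05 after Benjamini-Hochberg adjustment over all genes in the edgeR quasi-likelihood test, which called 2 genes, or 0.0149%, in the whole table. At an unadjusted p under 0.05 the same test put 6 of the 8 above WT and 1 below it, against 10.2% and 9.59% of all genes tested. Sp7, among the 6, passed the filter for low counts only through its Piezo1 GOF libraries, so its direction was partly set in advance. DESeq2 called 4 higher (Spp1, Ibsp, Alpl and Enpp1) and 1 lower (Mgp), against 3.73% and 2.74% of 13765 genes, and limma voom called Spp1 and Alpl higher, against 0.720%, and none lower, against 0.141%. Without WT replicate 1, edgeR called Spp1, Ibsp and Alpl higher (adjusted p = 0.0373, 0.0436 and 0.0354), among 164 genes higher and 43 lower in all, and without any other library it called none of the 8. The median log2 fold change of the 8 was 1.17, against -0.00448 over all genes tested.

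**Figure D1:**
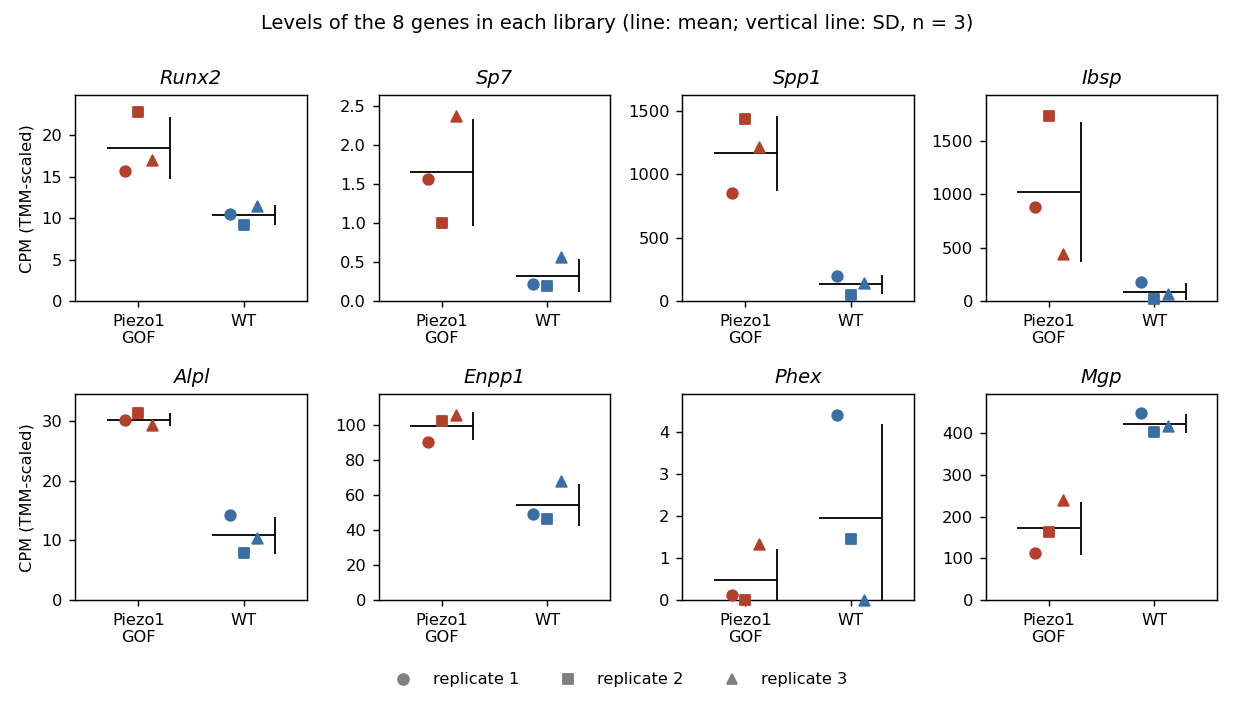
CPM (linear axes starting at 0) of each of the 8 genes in the 3 Piezo1 GOF libraries (left, red) and the 3 WT libraries (right, blue), with the mean as a horizontal line and the SD as a vertical line cut at 0. Every Piezo1 GOF point lies above every WT point for Runx2, Sp7, Spp1, Ibsp, Alpl and Enpp1 and below for Mgp, while Phex overlaps.

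Runx2, the factor required for osteoblast formation, stood at 15.7, 22.8 and 17.1 CPM in Piezo1 GOF replicates 1 to 3, against 10.5, 9.13 and 11.5 CPM in WT replicates 1 to 3. All 3 Piezo1 GOF libraries lay above the highest WT library, and the 3 WT libraries were close together. The log2 fold change was 0.84 ± 0.25 (SE), with a 95% interval of 0.27 to 1.404, and the edgeR adjusted p was 0.162. Runx2 (ENSMUSG00000039153.16) spans 44495987 to 44814797 of chromosome 17 in mm10, minus strand. Its exons share 519 bases with an antisense transcript, and whether strand was used in counting is not given in the sources used here.

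Sp7 (osterix), which acts after Runx2 in osteoblast commitment, was scarce. It had 12, 10 and 32 counts in the Piezo1 GOF libraries and 2, 3 and 5 counts in the WT libraries, or 1.56, 1.003 and 2.37 CPM against 0.215, 0.192 and 0.566 CPM. The groups did not overlap, but the whole WT level rests on 10 counts. Only the Piezo1 GOF libraries carried Sp7 past the filter for low counts, so its direction was partly set by that filter. Its log2 fold change was 2.37 ± 0.72 with an interval from 0.73 to 4.01 (edgeR adjusted p = 0.165). Within a library, the ratio of Sp7 to Runx2 counts was 0.0992, 0.0441 and 0.139 in Piezo1 GOF and 0.0204, 0.0210 and 0.0490 in WT, and these ranges overlapped.

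Spp1 (osteopontin), an acidic phosphoprotein that binds mineral and cell-surface integrins and is made by osteoblasts, hypertrophic chondrocytes and macrophages, stood at 849.8, 1433 and 1214 CPM in Piezo1 GOF replicates 1 to 3. In WT replicates 1 to 3 it stood at 201, 52.5 and 144 CPM. The lowest Piezo1 GOF library was thus above the highest WT library, and WT replicate 2 was the lowest of all 6. WT replicate 2 also had the lowest summed tenocyte markers, at 4985 CPM. Its Col1a1 level was 117 CPM, against 1894 and 1452 CPM in WT replicates 1 and 3. The low value there was therefore not particular to Spp1, and the part of tendon content was not tested. The log2 fold change was 3.14 ± 0.51, with an interval of 1.98 to 4.30 (edgeR adjusted p = 0.0572, DESeq2 adjusted p = 2.16e-10). The gene spans 104435118 to 104441050 on the plus strand of chromosome 5 (ENSMUSG00000029304.14). Its exons share 309 bases with Gm42793, a transcript on the same strand that is not among the genes counted.

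Ibsp (bone sialoprotein), a nucleator of hydroxyapatite made mainly by osteoblasts and by cells of mineralizing cartilage, reached 886, 1736 and 446 CPM in Piezo1 GOF and 178, 19.0 and 71.0 CPM in WT. Replicate 2 was the extreme of each genotype, highest in Piezo1 GOF and lowest in WT, and both groups varied more than for any of the other 5 genes that were higher without overlap, by the SD relative to the mean in Piezo1 GOF and in WT. The log2 fold change was 3.52 ± 0.81, with an interval of 1.68 to 5.36 (edgeR adjusted p = 0.108, DESeq2 adjusted p = 0.00656). It was 4.51 without WT replicate 1 and 2.93 without Piezo1 GOF replicate 2. The ratio of Ibsp to Spp1 counts was 1.04, 1.21 and 0.368 in Piezo1 GOF and 0.884, 0.363 and 0.495 in WT, so it overlapped between genotypes. Ibsp (ENSMUSG00000029306.8) spans 104299171 to 104311469 of chromosome 5.

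Spp1 and Ibsp lie on the same strand of chromosome 5 in a cluster of genes for secreted matrix phosphoproteins. Of 7 genes along this stretch, in order Sparcl1, Dspp, Dmp1, Ibsp, Mepe, Spp1 and the neighbour Pkd2, 4 had enough counts to be tested. Pkd2, a cation channel subunit gene next to Spp1, stood at 221, 418 and 170 CPM in Piezo1 GOF and 105, 111 and 130 CPM in WT, with a log2 fold change of 1.22 ± 0.34 (edgeR adjusted p = 0.145). Sparcl1, a matricellular gene at the other end, overlapped at 365 ± 133 CPM in Piezo1 GOF and 352 ± 112 CPM in WT (SD, n = 3 each). The osteocyte genes Dmp1 and Mepe and the dentin gene Dspp had few counts. Dmp1 had 0, 26 and 60 counts in Piezo1 GOF and 1, 16 and 0 in WT, and Mepe had 0, 0 and 32 counts in Piezo1 GOF and 1, 7 and 0 in WT. Dspp had 0, 0 and 9 counts in Piezo1 GOF and 0, 4 and 0 in WT. Along the stretch, Spp1, Ibsp and the neighbouring Pkd2 were therefore without overlap between genotypes, and Sparcl1 overlapped.

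**Figure D2:**
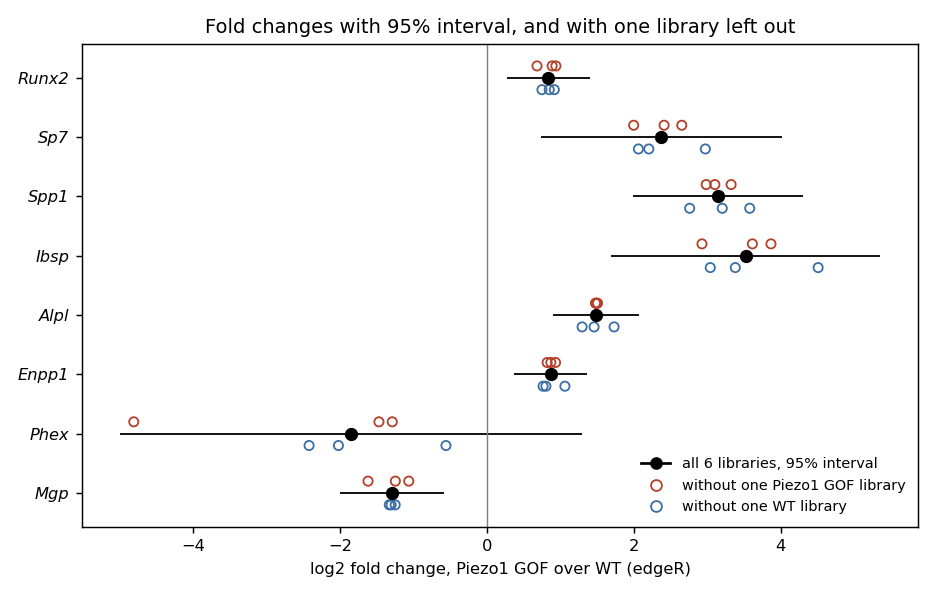
Log2 fold change (Piezo1 GOF over WT) of each gene from edgeR, with all 6 libraries (black, bar 95% interval) and with 1 library left out (open circles, red for a Piezo1 GOF and blue for a WT library). All circles stay on the side of 0 of the black point, and the interval of Phex alone includes 0.

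Alpl, the phosphatase that degrades pyrophosphate at the surface of osteoblasts and matrix vesicles, had nearly equal levels in the 3 Piezo1 GOF libraries, at 30.0, 31.3 and 29.2 CPM, against 14.2, 7.92 and 10.4 CPM in WT. The SD of 1.05 CPM in Piezo1 GOF compares with 3.15 CPM in WT. The log2 fold change was 1.48 ± 0.26, with an interval of 0.90 to 2.06 (edgeR adjusted p = 0.0572, DESeq2 adjusted p = 3.29e-04). Alpl (ENSMUSG00000028766.10) spans 137741733 to 137796384 on the minus strand of chromosome 4.

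Enpp1, which produces the pyrophosphate that Alpl removes, was higher as well. It stood at 90.0, 102 and 106 CPM in Piezo1 GOF, against 48.9, 46.3 and 68.1 CPM in WT, and the groups did not overlap. The log2 fold change was 0.87 ± 0.22, with an interval from 0.37 to 1.37 (edgeR adjusted p = 0.126, DESeq2 adjusted p = 0.0212). The ratio of Alpl to Enpp1 counts, which no scaling between libraries affects, was 0.334, 0.307 and 0.276 in Piezo1 GOF and 0.290, 0.171 and 0.153 in WT. WT replicate 1 lay within the Piezo1 GOF range, so the balance of the opposing enzymes was not separated by genotype at the transcript level. Enpp1 (ENSMUSG00000037370.13) is at 24637914 to 24712159 of chromosome 10, minus strand.

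Phex, an endopeptidase of osteoblasts and osteocytes that cleaves osteopontin and other acidic phosphoproteins, was too scarce to compare. It had 1, 0 and 18 counts in the Piezo1 GOF libraries and 41, 23 and 0 counts in the WT libraries. Each genotype held a library at 0, and the log2 fold change of -1.85 ± 1.39 had an interval from -5.00 to 1.29 (edgeR adjusted p = 0.478). Its sign turned to 0.53 in limma voom with sample quality weights (adjusted p = 0.877). Phex (ENSMUSG00000057457.11) spans 157162075 to 157415312 of the X chromosome.

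Mgp, the calcification inhibitor, was on the opposite side to the 6 genes higher without overlap. It stood at 112, 164 and 239 CPM in Piezo1 GOF replicates 1 to 3, against 447, 402 and 417 CPM in WT replicates 1 to 3. The highest Piezo1 GOF library was below the lowest WT library, and the SD was 64.1 CPM among Piezo1 GOF libraries and 23.2 CPM among WT libraries. The log2 fold change was -1.30 ± 0.31, with an interval of -2.01 to -0.59 (edgeR adjusted p = 0.117, DESeq2 adjusted p = 0.00103, limma voom adjusted p = 0.0764). Mgp (ENSMUSG00000030218.2) lies at 136872435 to 136875823 of chromosome 6, minus strand.

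Spp1 and Mgp differed in opposite directions, and their ratio within a library, chosen after their counts had been seen, differed most among the 4 ratios computed. Spp1 counts were 7.60, 8.75 and 5.07 times those of Mgp in Piezo1 GOF and 0.449, 0.131 and 0.344 times in WT. The geometric means differ 25.6-fold, and scaling between libraries has no part in this value. Since counts grow with transcript length, the ratio compares libraries and not the amounts of both transcripts.

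**Figure D3:**
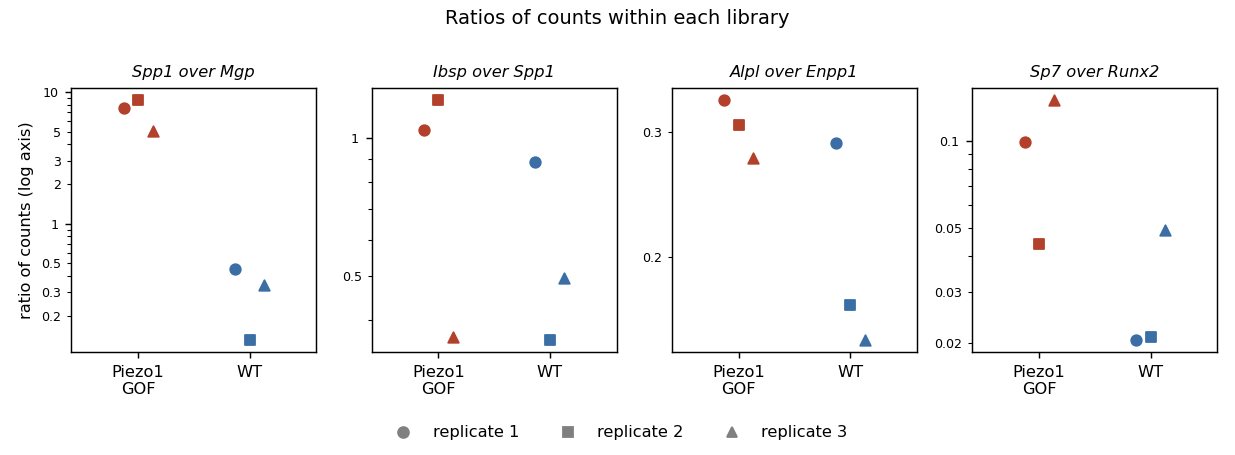
Ratio of counts of gene pairs within each library on log axes, with Piezo1 GOF (red) left of WT (blue) and the symbol giving the replicate. Spp1 over Mgp is at 5.07 or above in Piezo1 GOF and at 0.449 or below in WT, and the other 3 ratios overlap.

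Per length, the order of the genes differed between the genotypes at its upper end. In Piezo1 GOF, Spp1 came first with 707 ± 179 CPM per kb of merged exons, followed by Ibsp with 494 ± 317 and Mgp with 145 ± 54.0 CPM per kb (SD, n = 3). In WT, Mgp came first with 356 ± 19.5 CPM per kb, followed by Spp1 with 80.3 ± 45.4 and Ibsp with 43.2 ± 39.1 CPM per kb. Spp1 and Ibsp overlapped each other within each genotype, and Mgp was separate from both in each. Enpp1 at 9.67 ± 0.800, Alpl at 7.48 ± 0.261 and Runx2 at 2.10 ± 0.423 CPM per kb followed in Piezo1 GOF, and in WT they held the same ranks at 5.31 ± 1.16, 2.69 ± 0.781 and 1.18 ± 0.137 CPM per kb. Sp7 and Phex came last, at 0.484 ± 0.203 and 0.0776 ± 0.117 CPM per kb in Piezo1 GOF, and at 0.0954 ± 0.0617 and 0.311 ± 0.356 CPM per kb in WT, where they overlapped.

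The genes also differed in how they ranged over the single libraries. Taking log2 CPM minus the gene's own mean over the 6 libraries, Runx2 and Enpp1 were the most alike pair among the 8, with a root mean square difference of 0.18 log2 units. Spp1 and Ibsp differed by 0.71 and Alpl and Enpp1 by 0.43, while Ibsp and Mgp differed by 2.85. The values were centred but not scaled, so this difference also depends on how widely each gene ranges and is not a correlation. Spp1 ordered all 6 libraries in the reverse of their skeletal muscle share, from Piezo1 GOF replicate 2 with the lowest share to WT replicate 2 with the highest. Ibsp and Alpl gave the same order as Spp1, except that Piezo1 GOF replicate 1 stood above replicate 3. Mgp did not follow the order of muscle share, since WT replicate 1 had the highest Mgp level and the smallest WT muscle share. The part of muscle content in the results was not tested. With the muscle markers, Rn45s and Lars2 removed before scaling, the log2 fold change was 3.14 for Spp1, 3.51 for Ibsp, 1.48 for Alpl and -1.30 for Mgp. That removal alters only the scaling and leaves the counts of each gene as they were, so it cannot show the part of muscle content.

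**Figure D4:**
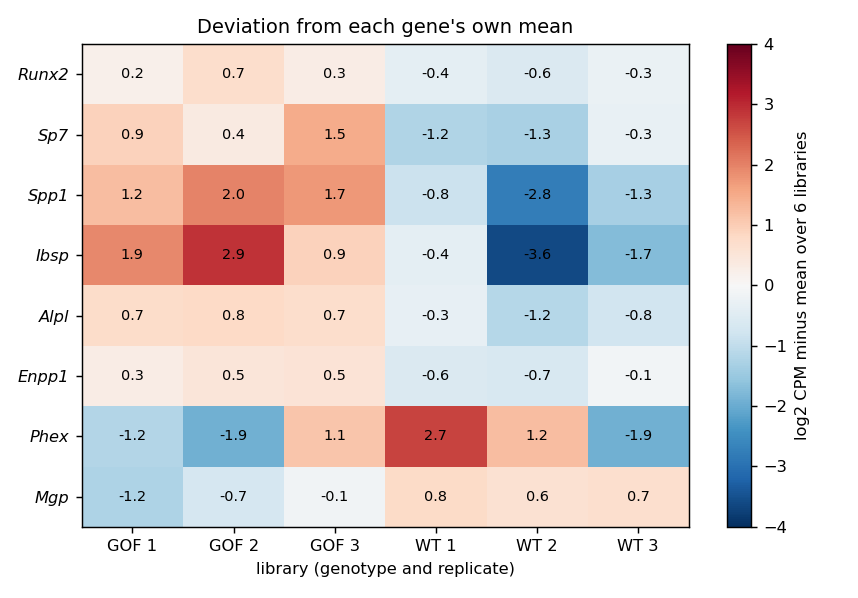
Log2 CPM of each gene minus its own mean, by library (Piezo1 GOF replicates 1 to 3, then WT replicates 1 to 3), with red above and blue below the mean. Spp1 and Ibsp have their lowest value in WT replicate 2 (-2.78 and -3.61), Mgp is negative in all Piezo1 GOF libraries, and Phex has both signs in each genotype.

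Over the whole table, the nearest genes by that difference were sought among 10958 or 10959 tested genes with a mean of at least 5 CPM. Alpl was nearest to the aggrecanase gene Adamts5 (0.048), with 165, 168 and 170 CPM in Piezo1 GOF and 75.2, 43.0 and 59.0 CPM in WT, and then to the mannose receptor gene Mrc1 (0.10). Enpp1 was nearest to Fmnl1 (0.046) and Pyroxd2 (0.070), and Runx2 to the intraflagellar transport genes Ift27 (0.076) and Ift46 (0.080). Sp7 was nearest to the integrin gene Itgam (0.21) and Alox5ap (0.22). Spp1 was nearest to Cgref1 (0.33) and the MHC class II gene H2-Aa (0.40), and Ibsp to 1500015O10Rik (0.40) and chondroadherin, Chad (0.44). Mgp was nearest to Sepsecs (0.25) and Adh1 (0.25), and Phex had no near gene, the closest being Plekhb1 (0.83) and Dpep1 (0.85). These distances rest on 6 libraries, depend on how widely each gene ranges and are descriptions.

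Markers of some other cell types moved with the genotype as well, and their part in the results was not tested. For comparison, 13.6% of all genes tested lay wholly above WT and 12.1% wholly below. Of 12 macrophage markers, 11 lay wholly above WT, and their summed level was 658 to 821 CPM in Piezo1 GOF and 262 to 306 CPM in WT. Of 9 chondrocyte markers listed, 7 were tested and 3 lay wholly above, with sums of 7353 to 21196 CPM in Piezo1 GOF and 516 to 3634 CPM in WT. Nearly all of these sums was Chad, at 13738, 20953 and 7209 CPM in Piezo1 GOF and 3561, 465 and 2180 CPM in WT. Acan and Hapln1 were the others wholly above, while Sox9, Col2a1, Matn3 and Col10a1 overlapped. Hapln1, and Fcgr1 among the macrophage markers, needed their Piezo1 GOF libraries to pass the filter for low counts. Of 8 osteoclast markers only Acp5, Ctsk and Mmp9 could be tested, none of them separated by genotype, and their summed levels overlapped at 65.7 to 137 CPM in Piezo1 GOF and 12.4 to 72.2 CPM in WT. Acp5 and Ctsk had log2 fold changes of 1.38 ± 0.59 and 1.49 ± 0.68. Among the markers with too few counts to test, the calcitonin receptor gene Calcr had 0 counts in each Piezo1 GOF library and 0, 6 and 4 counts in the WT libraries, while Dcstamp, needed for osteoclast fusion, had 0, 7 and 45 counts in Piezo1 GOF and 1, 0 and 0 counts in WT. The 6 vascular smooth muscle markers summed to 548 to 792 CPM in Piezo1 GOF and 953 to 4146 CPM in WT, and of the 5 tested 1 lay wholly below WT. The top of the WT range came from WT replicate 1, where the smooth muscle actin gene Acta2 stood at 1946 CPM, against 120 and 128 CPM in WT replicates 2 and 3. This is also the library without which edgeR called 164 genes higher and 43 lower. The summed level of 7 endothelial markers overlapped, at 426 to 624 CPM in Piezo1 GOF and 584 to 784 CPM in WT, with 1 marker wholly below WT. Erythroid and marrow markers summed to 21.0 to 71.8 CPM in Piezo1 GOF and 11.2 to 36.1 CPM in WT, with none of 4 tested separated. Adipocyte markers summed to 437 to 1111 CPM in Piezo1 GOF and 219 to 478 CPM in WT, with 2 of 5 wholly above WT.

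Among other genes of osteoblasts and osteocytes, 9 of 19 had enough counts to be tested. None of the 9 passed over all genes by edgeR. Without adjustment, 5 were higher and 1 lower at an edgeR p under 0.05, against 10.2% and 9.59% of all genes tested. DESeq2 called 4 of 10 higher and 1 lower, against 3.73% and 2.74%, and the median log2 fold change was 0.90. Sparc (osteonectin), a collagen-binding glycoprotein abundant in bone and tendon, stood at 6880 ± 1875 CPM in Piezo1 GOF and 1708 ± 1311 CPM in WT (2.01 ± 0.73). Osteomodulin (Omd), a small proteoglycan of mineralized tissue, had 52.7, 194 and 29.6 CPM in Piezo1 GOF and 11.7, 4.85 and 9.28 CPM in WT (3.43 ± 0.69, edgeR adjusted p = 0.0926), and Capg, an actin-capping protein gene, had a log2 fold change of 1.21 ± 0.26. Cdh11 (osteoblast cadherin) overlapped, with a log2 fold change of -0.03 ± 0.50. Col22a1, a collagen of tissue junctions, lay wholly below WT, at 66.5 ± 33.8 CPM in Piezo1 GOF and 176 ± 91.5 CPM in WT. Osteocalcin, the late osteoblast product and one of the most specific, had few counts, and it was looked at after its counts were seen. Bglap had 10.9, 3.53 and 15.9 estimated counts in Piezo1 GOF and 0 in each WT library, and Bglap2 had 11.1, 14.5 and 9.14 in Piezo1 GOF and 7, 0 and 0 in WT. Bglap and Bglap2 are near-identical copies among which reads are shared by estimation, so their split is uncertain. Sost, the osteocyte gene for sclerostin, had 0, 0 and 6 counts in Piezo1 GOF and 4, 8 and 0 in WT.

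Transcription factors that act with or against Runx2 and Sp7 were tested for 17 of 20 genes, with a median log2 fold change of 0.51. By edgeR none passed over all genes. At an unadjusted p under 0.05 edgeR put 8 above WT and 0 below, against 10.2% and 9.59% of all genes tested. Runx3 and Dlx5, among the 8, needed their Piezo1 GOF libraries to pass the filter for low counts, so their direction was partly set in advance. DESeq2 called 5 higher and 0 lower, against 3.73% and 2.74%. Trps1, a GATA-type repressor of cartilage and bone, stood at 339, 506 and 258 CPM in Piezo1 GOF and 117, 76.1 and 145 CPM in WT (1.71 ± 0.35, edgeR adjusted p = 0.0933). Runx1 (1.21 ± 0.37) and Zfp521, a repressor of Runx2 activity (0.51 ± 0.22), also lay wholly above WT. Atf4 (-0.07 ± 0.22) and Zbtb16 (-0.88 ± 0.44) overlapped between the genotypes. Among less abundant factors, singled out after their values were seen, Dlx5, an activator of osteoblast genes, had 6.76, 23.2 and 2.97 CPM in Piezo1 GOF and 1.504, 0.639 and 1.70 CPM in WT (3.13 ± 0.78), and Twist1, which restrains Runx2, had a log2 fold change of 1.79 ± 0.40. Dlx5 and Twist1, with opposite known effects on the osteoblast programme, both lay wholly above WT.

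Genes handling phosphate and pyrophosphate were mixed. Of 13 tested, by edgeR 3 lay above and 2 below WT at an unadjusted p under 0.05, against 10.2% and 9.59% of all genes tested. None passed over all genes, while DESeq2 called 3 higher and 2 lower, against 3.73% and 2.74%. The median was 0.10. The annexins Anxa2 (1.37 ± 0.37) and Anxa5 (1.396 ± 0.43), calcium-dependent membrane binders found in matrix vesicles, lay wholly above WT, while Anxa6 overlapped (-0.04 ± 0.22). Ank, which exports the source of extracellular pyrophosphate, overlapped at 198 ± 33.7 CPM in Piezo1 GOF and 256 ± 61.5 CPM in WT. Slc20a2, a phosphate importer, was lower in every Piezo1 GOF library, at 121, 47.0 and 101 CPM against 143, 274 and 254 CPM in WT (-1.32 ± 0.39). Nt5e (CD73), which forms adenosine from the AMP that Enpp1 leaves, was singled out after its values were seen, with 84.7, 75.1 and 83.8 CPM in Piezo1 GOF and 42.4, 25.5 and 30.8 CPM in WT (1.31 ± 0.23, edgeR adjusted p = 0.0637). Phospho1, a phosphatase gene also singled out afterwards, went the other way, at 22.5 ± 16.8 CPM in Piezo1 GOF and 70.2 ± 31.4 CPM in WT (-1.64 ± 0.61). Its genotypes overlapped, and DESeq2 called it lower (adjusted p = 0.0492).

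A list of 11 genes for vitamin K-dependent and circulating inhibitors and their enzymes, which also held Tgm2, Fam20a, Fam20c and Casr, was tested for 9. Ahsg and Fetub, the circulating inhibitors listed, had too few counts to be tested. By edgeR with p left unadjusted (under 0.05), 2 were higher (Vkorc1 and Ucma) and 1 lower (Tgm2), against 10.2% and 9.59% of all genes tested. Ucma needed its Piezo1 GOF libraries to pass the filter for low counts, so its direction was partly set in advance. None passed over all genes, and DESeq2 called 2 higher and 0 lower, against 3.73% and 2.74%. The median log2 fold change was 0.43. Vkorc1, which recycles the vitamin K that Mgp needs for its carboxylation, stood at 68.9, 87.5 and 74.0 CPM in Piezo1 GOF and 50.3, 21.0 and 23.8 CPM in WT (1.28 ± 0.34). Its paralogue Vkorc1l1 overlapped (-0.07 ± 0.19). Gas6, another vitamin K-dependent protein, had a log2 fold change of 0.25 ± 0.27 and overlapped. Tgm2, a transglutaminase that crosslinks osteopontin, lay below WT in every Piezo1 GOF library (-0.60 ± 0.25), and Fam20c, the kinase that phosphorylates osteopontin and bone sialoprotein, overlapped (-0.40 ± 0.31).

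Cell-surface receptors of osteopontin and bone sialoprotein were tested for all 9 genes listed, with a median of -0.16. Of these, 2 were higher and 1 lower by edgeR where p was left unadjusted (under 0.05), against 10.2% and 9.59% of all genes tested. None passed over all genes, and DESeq2 called 0 higher and 1 lower, against 3.73% and 2.74%. Cd44, a hyaluronan receptor that also binds osteopontin, stood at 116, 130 and 211 CPM in Piezo1 GOF and 83.7, 72.6 and 112 CPM in WT (0.77 ± 0.29), and Itgb5 had a log2 fold change of 0.72 ± 0.26. Itgav, the alpha chain that pairs with Itgb3 and Itgb5, overlapped at 117 ± 12.9 CPM in Piezo1 GOF and 117 ± 33.0 CPM in WT, and Itgb1 (-0.16 ± 0.30) and Itga5 (-0.39 ± 0.26) had values below 0, the first with overlapping genotypes and the second without. Itga8, singled out after its values were seen, was at 9.75, 7.32 and 9.93 CPM in Piezo1 GOF and 61.1, 24.5 and 23.8 CPM in WT (-2.01 ± 0.39, edgeR adjusted p = 0.0877).

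**Figure D5:**
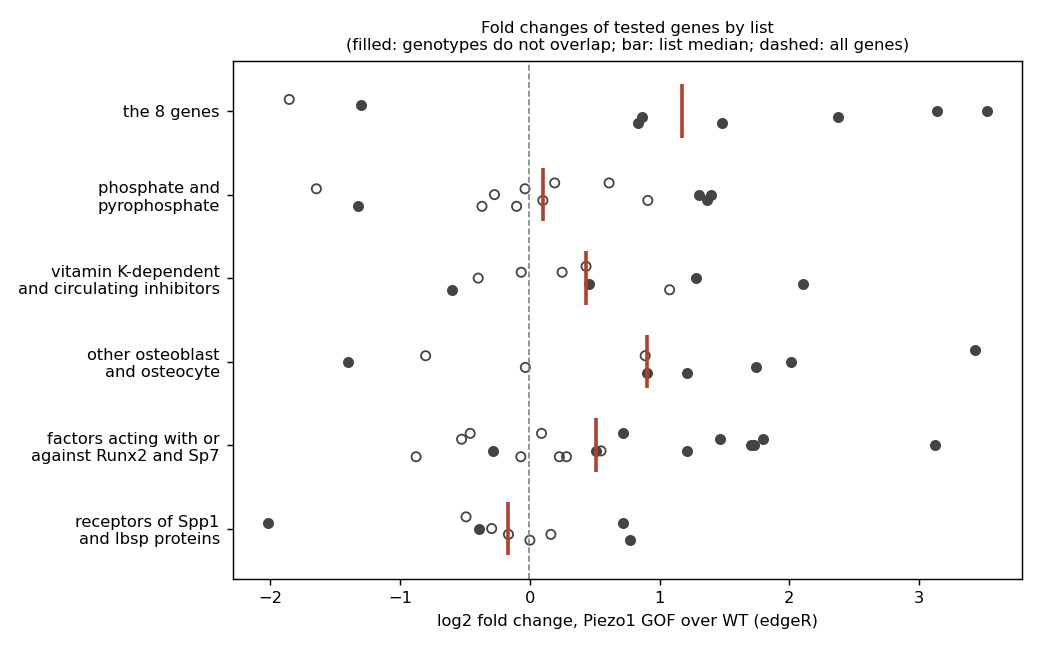
Log2 fold change (Piezo1 GOF over WT, edgeR) of each tested gene in the 8 genes and in the other 5 lists, filled where the genotypes do not overlap, with the list median as a red bar and the median over all genes as a dashed line. The medians run from 1.17 for the 8 genes to -0.16 for the receptors.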

How the data were processed

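Total RNA of the Achilles tendon was sequenced in 6 libraries, 3 per genotype, grouped by the genotype in the titles. The values are estimated counts per gene symbol, which the authors deposited without scaling for depth or length. The submitters' processing notes name bcl2fastq, STAR, RSEM and edgeR, without roles, and the mm10 build. Versions, annotation and strand setting were not given in those notes or in the labels. The estimated counts were rounded to whole numbers, low genes removed with filterByExpr (minimum count 10), and libraries scaled by TMM (factors 0.897 to 1.10). The genotypes were compared over all 13466 remaining genes with edgeR's two-sided quasi-likelihood test without covariates, Benjamini-Hochberg adjustment and a threshold of 0.05. The SE is the fold change divided by the root of F. The steps were tested on simulated counts. Chi-square per degree of freedom between replicates was 38.7 to 133, so no library repeated another. With 3 libraries per genotype, a common dispersion of 0.113 limits precision.

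Gene models for coordinates and exon lengths came from GENCODE M21 (mm10), and promoters from RefSeq (GRCm38.p6), where 6 of the 8 symbols matched. The members and lists were chosen with earlier results of these data known. Named from each pathway list were the 5 genes of highest mean CPM, together with all genes taken along the chromosome 5 stretch and the 2 nearest genes per member. Genes outside this rule, the ratios and the motifs were chosen after values were seen. Alternatives were other scalings, no filter, DESeq2, limma voom, a replicate block, removal of muscle markers with Rn45s and Lars2, and leaving out each library. Software was R 4.3.3, edgeR 4.0.16, limma 3.58.1, DESeq2 1.42.0 and Python 3.11.15.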

Additional observations from a re-analysis of the deposited data

How the results depend on the processing

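The 7 genes other than Phex kept their direction under all alternatives run, and Phex turned to a log2 fold change of 0.53 in limma voom. Over all genes, edgeR gave 2 higher and 0 lower. This became 0 and 0 with total counts alone or with a replicate block, 141 and 24 with no filter, 514 and 377 with DESeq2 and 97 and 19 with limma voom, and between 0 and 164 higher and 0 and 43 lower with 1 library left out, the top values without WT replicate 1. Of the 8 genes, those past the threshold were 3 higher and 0 lower with no filter, 4 and 1 with DESeq2, 2 and 0 with limma voom, and 0 to 3 higher and 0 lower with 1 library left out. The 3 were Spp1, Ibsp and Alpl, both with no filter (edgeR adjusted p = 0.0151, 0.0416 and 0.0235) and without WT replicate 1 (0.0373, 0.0436 and 0.0354). With other libraries left out, none of the 8 passed by edgeR. Leaving out 1 library moved the log2 fold change of Ibsp between 2.93 and 4.51, that of Spp1 between 2.76 and 3.58, that of Sp7 between 1.996 and 2.97 and that of Phex between -4.81 and -0.56. Sp7 was not tested after removal of the muscle markers, where the filter was applied anew. Total counts alone moved the median of all genes to 0.10. Same-numbered libraries did not deviate together (correlations -0.21, -0.14 and -0.05), so the replicate block pairs numbers only, and none of the 8 passed with it (edgeR adjusted p at least 0.235). At this depth Sp7, Phex, Dmp1, Mepe and Bglap rest on few counts.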
